A study of Mus musculus with 20 samples.

Results

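The 10 genes described here serve the conjugation of drugs and pollutants and were followed in the liver of mice given benzo(a)pyrene (BaP): the glucuronosyltransferase genes *Ugt1a1*, *Ugt1a6a*, *Ugt2b1*, *Ugt2b5*, *Ugt2b34* and *Ugt2b36*, the sulfotransferase genes *Sult1a1*, *Sult1b1* and *Sult1d1*, and *Papss2*, which supplies the sulfotransferases with their activated sulfate. Probes were chosen by the gene that their RefSeq accession maps to, without use of any measured value, but the genes were chosen with earlier results of these data known. Of the 10 genes, 9 had a probe, with 10 probes among the 41174 on the array, since *Sult1b1* had 2. *Ugt1a6a* had none and is not described further, apart from its promoter. All 10 probes were among the 27346 that counted as present, and each was well above background in the liver channel on all 20 arrays.

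The animals were male Muta™Mouse of transgenic strain 40.6, 25 weeks old, with 5 in each of 4 groups. Controls received olive oil alone, and the other groups received BaP at 25, 50 or 75 mg/kg/day in the same vehicle, by oral gavage for 28 days. Livers were taken 3 days after the last dose, so the values describe RNA after that interval and not during dosing. Every mouse, control or exposed, carried the same *lacZ* transgene, and each was measured on its own array. Each array compared liver RNA (Cy5) with a reference RNA pooled from 11 mouse cell lines (Cy3), and the values below are log2 ratios of liver over reference.

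Glucuronosyltransferases (UGTs) sit in the endoplasmic reticulum and attach glucuronic acid from UDP-glucuronic acid to a hydroxyl or similar group. Sulfotransferases (SULTs) of the cytosol attach a sulfonate group taken from PAPS (3′-phosphoadenosine 5′-phosphosulfate). Both reactions make phenols, quinols and other oxidised products of polycyclic hydrocarbons easier to excrete, although sulfonation of some benzylic alcohols gives reactive esters. Several UGT1A genes are textbook targets of the aryl hydrocarbon receptor, the protein that binds BaP, and of the stress-responsive factor Nrf2.

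The promoters were read from RefSeq windows of the GRCm38.p6 assembly, 300 bases long with 250 before and 50 after the start, and all 10 genes matched, with 12 windows. GTTAAT, the core letters of a site of the liver factor HNF1, was searched on both strands and lay in the windows of 4 genes, *Ugt1a1*, *Ugt1a6a*, *Sult1a1* and *Sult1d1*, against 7.1% of all 32841 windows. The 5-letter core GCGTG of the xenobiotic response element lay in windows of *Sult1b1* and *Sult1d1*, against 32.4% of all windows, and no member window held TGACNNNGC, the core of the antioxidant response element, against 12.4% of all. Matches are letters found in a window and were not tested as binding sites. Bases outside these windows were not searched, so a gene without a match may hold the letters farther away. The 100 bases before the start are shown for the 3 genes with an HNF1 match there, 5′ to 3′ on the gene's strand, with that match in capitals on either strand and, in *Sult1d1*, the reverse complement of the xenobiotic response core in capitals as well. They are chr1:88211859-88211958 on the plus strand for *Ugt1a1*, chr1:88134709-88134808 on the plus strand for *Ugt1a6a* and chr5:87569007-87569106 on the minus strand for *Sult1d1*.
Ugt1a1: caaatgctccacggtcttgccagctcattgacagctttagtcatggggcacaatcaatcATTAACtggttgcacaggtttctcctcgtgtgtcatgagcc
Ugt1a6a: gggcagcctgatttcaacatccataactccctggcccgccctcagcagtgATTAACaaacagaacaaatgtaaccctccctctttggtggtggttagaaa
Sult1d1: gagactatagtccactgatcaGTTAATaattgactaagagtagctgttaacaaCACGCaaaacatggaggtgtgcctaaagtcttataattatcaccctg

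Before the members, 3 facts of the series bear on them. The labels name both liver and lungs as the tissue. The liver markers *Alb*, *Apoa1*, *Ttr*, *Fabp1* and *Tat* gave control log2 ratios between 3.68 and 7.53 with every spot well above background, while the lung markers *Sftpc* and *Sftpb* were not present and *Scgb1a1*, *Sftpa1* and *Ager* were well above background on 5, 16 and 1 of the 20 arrays. Arrays lay on 6 slides with up to 4 positions each. The controls were at position 1 apart from control 2 at position 2, every array of the lowest dose was at position 2, those of the middle dose were at position 3 apart from animal 13 at position 4, and every array of the highest dose was at position 4. The 50 and 75 mg/kg/day groups thus shared no position with the controls, where position and dose cannot be told apart, and the 25 mg/kg/day group shared its position with 1 control. Slide could be added to the model. The liver channel exceeded background clearly for a share of spots that ranged from 51.9% to 67.5% per array. The highest share was that of control 4, and the next was 62.4%. Control 4 was also the lowest control for *Ugt2b5*, *Ugt2b36* and *Sult1a1* and the highest for *Sult1b1* and *Sult1d1*.

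No member passed the threshold at any dose. With limma and an adjusted p under 0.05 together with a change over 1.5-fold, 0 of 10 member probes were called at 25, 50 or 75 mg/kg/day, beside 0%, 0% and 0.135% of all present probes. A trend with dose was called for 0 member probes, beside 0.157% of all. At an unadjusted p under 0.05, 4 of the 9 genes (brightest probe each) were higher than control at every dose, which were *Ugt2b1*, *Ugt2b5*, *Ugt2b36* and *Sult1b1* at 25, *Ugt1a1*, *Ugt2b1*, *Ugt2b36* and *Papss2* at 50, and *Ugt2b1*, *Ugt2b5*, *Ugt2b36* and *Papss2* at 75 mg/kg/day. The share of all present probes that were higher at that unadjusted level was 4.18%, 3.75% and 6.52%. The point estimates of all 9 genes lay above 0 at each dose, beside 50.3%, 49.2% and 50.6% of all present probes, and the 3 doses share the same 5 control arrays. Some of these signs turned under other scalings, as given for each gene. No member had all its exposed arrays above all control arrays at any dose, a pattern that 0.559%, 0.527% and 0.936% of present probes showed.

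**Figure D1:**
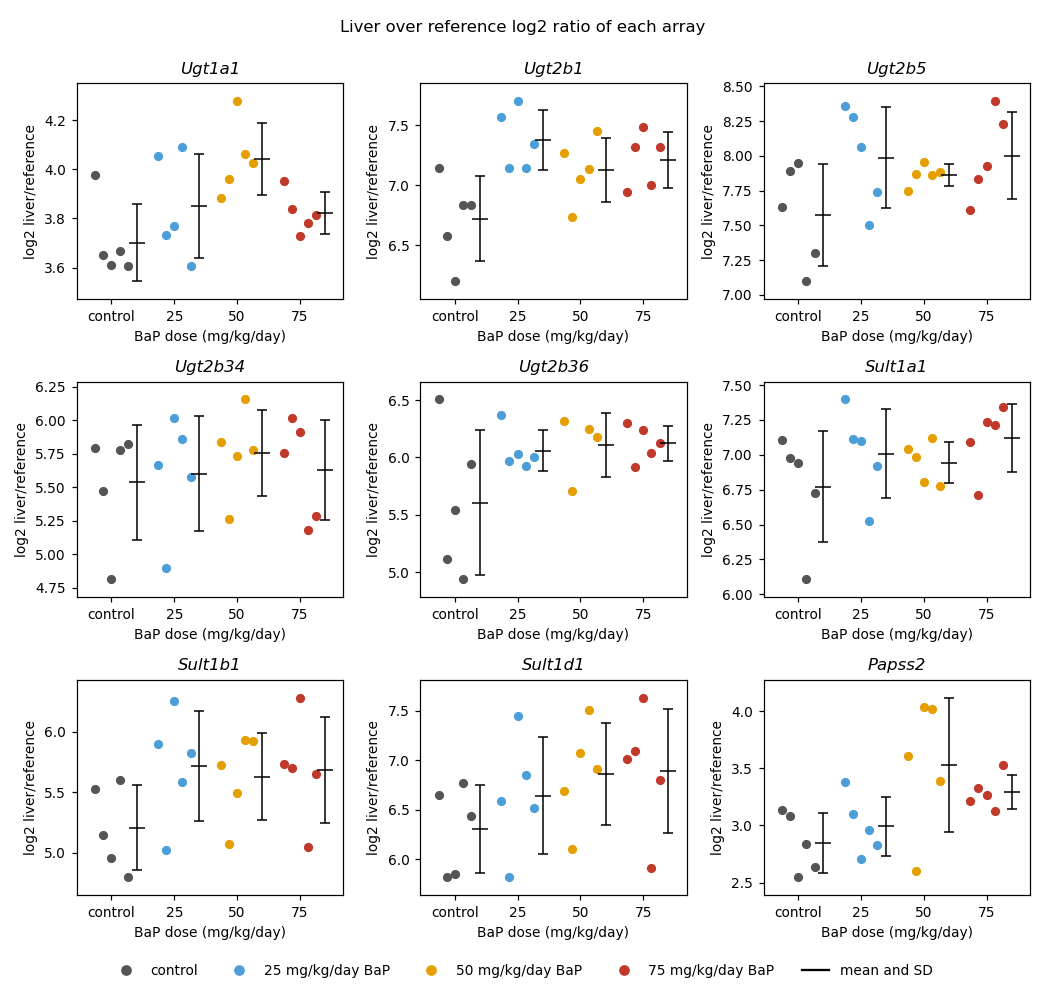
Log2 ratio of liver over reference RNA (vertical axis) of each array by BaP dose (horizontal axis), for the brightest probe of each of the 9 genes. Points are arrays in order of animal number, with 5 per group except 4 for *Ugt2b36* at 50 mg/kg/day, and bars are mean and SD. In every panel the exposed groups overlap the controls.

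*Ugt1a1* encodes the enzyme that conjugates bilirubin and also phenols, and its probe (NM_201645) stood at a log2 ratio of 3.70 ± 0.16 (SD, n = 5) in control liver. The 5 control arrays read 3.98, 3.65, 3.61, 3.67 and 3.60, and those at 25 mg/kg/day 4.05, 3.73, 3.77, 4.09 and 3.61. The arrays at 50 mg/kg/day read 3.88, 3.96, 4.28, 4.06 and 4.03, and those at 75 mg/kg/day 3.95, 3.84, 3.73, 3.78 and 3.81. All 5 arrays at 50 mg/kg/day lay above 4 of the controls and 3 lay above every control, whereas none did at 75 mg/kg/day. The log2 difference at 50 mg/kg/day was 0.34 ± 0.11 (SE; 1.27-fold, 95% interval 1.09 to 1.48; limma adjusted p = 0.642). At 25 and 75 mg/kg/day it was 0.15 and 0.12, and with the liver channel alone -0.02 and -0.11. The difference between 75 and 50 mg/kg/day was -0.22 ± 0.11 on the log2 scale (adjusted p = 0.712). With the processed signals of the scanner software the 50 mg/kg/day value was -0.04, so its direction rests on the signal used. UGT1A transcripts share their last exons and differ in the first, and where this probe lies in the transcript is not given in the sources used here.

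*Ugt2b1*, a UGT2B enzyme, had the largest difference of the members at 25 mg/kg/day. Its probe (NM_152811) gave 7.15, 6.58, 6.20, 6.84 and 6.84 in controls and 7.57, 7.15, 7.70, 7.14 and 7.35 at 25 mg/kg/day. The values were 7.27, 6.74, 7.05, 7.14 and 7.45 at 50 mg/kg/day, and 6.94, 7.32, 7.49, 7.00 and 7.32 at 75 mg/kg/day. Of the 5 arrays at each dose, 4, 2 and 3 lay above the highest control, with 1 array at 25 mg/kg/day level with it to 2 decimals. The log2 differences were 0.66 ± 0.17, 0.41 ± 0.17 and 0.49 ± 0.17 (SE), or 1.58-fold (95% interval 1.24 to 2.01), 1.33-fold and 1.41-fold, with adjusted p = 0.636, 0.708 and 0.285. The step from 25 to 50 mg/kg/day was -0.25 ± 0.17, so no order by dose was shown. At 25 mg/kg/day the value ranged from 0.53 to 0.77 when each array was left out in turn. It ranged from 0.46 to 0.66 over 11 other settings, with the lowest adjusted p at 0.197. Some of these settings change only the probes tested, the groups fitted or the adjustment, and so repeat the main value of 0.66.

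*Ugt2b5* belongs to the same family and lies near *Ugt2b36* on chromosome 5. Its probe (NM_009467) gave 7.63, 7.89, 7.95, 7.10 and 7.30 in controls. It gave 8.36, 8.28, 8.06, 7.50 and 7.74 at 25, 7.74, 7.87, 7.96, 7.86 and 7.89 at 50, and 7.61, 7.84, 7.93, 8.39 and 8.23 at 75 mg/kg/day. The groups overlapped at each dose, and the arrays at 50 mg/kg/day were closely packed, with an SD of 0.08 against 0.37 in controls. The exposed groups differed from control by 0.41, 0.29 and 0.42 on the log2 scale (SE 0.18 each), with adjusted p = 0.636, 0.789 and 0.386. The highest values, above 8.2, came from both arrays of slide 4 and both of slide 5, slides that held no control. With the liver channel alone the value at 50 mg/kg/day was 0.0325, and without control 4 it was 0.17. Over the same 11 settings the range at 75 mg/kg/day was 0.15 to 0.49.

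*Ugt2b36* had the widest spread in controls of the members, with an SD of 0.63. Its probe (NM_001029867) gave 6.50, 5.11, 5.54, 4.94 and 5.94 in controls, a range that held every exposed value. It gave 6.37, 5.97, 6.03, 5.93 and 6.00 at 25 mg/kg/day and 6.30, 5.91, 6.24, 6.04 and 6.12 at 75 mg/kg/day. With 50 mg/kg/day 4 arrays gave 6.31, 5.70, 6.25 and 6.17, and the spot of animal 13 carried an outlier mark and was left out of the fit. The log2 differences were 0.45 ± 0.22, 0.50 ± 0.23 and 0.52 ± 0.22 (SE; adjusted p = 0.640, 0.727 and 0.379), and the trend was 0.16 per 25 mg/kg/day (adjusted p = 0.529). With the liver channel alone they were -0.02, 0.06 and 0.03, and without control 4, the lowest control array, the first was 0.29. Without control 1, the highest control array, the adjusted p at 75 mg/kg/day was 0.0732, the lowest of any member in the fits that left out 1 array.

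*Ugt2b34* (NM_153598) showed no difference that stood apart from the spread at any dose. Its control arrays ranged from 4.82 to 5.83, and the exposed groups from 4.90 to 6.01, 5.27 to 6.16 and 5.18 to 6.01. Its differences from control were 0.06, 0.22 and 0.09 on the log2 scale (SE 0.23 each; adjusted p = 0.960, 0.887 and 0.917), and their 95% intervals reached from -0.41 to 0.69 over the 3 doses; the upper end at 50 mg/kg/day, 0.69, lies above 1.5-fold. With the liver channel alone the 25 and 75 mg/kg/day values were -0.16 and -0.20, and without control 3, the lowest control array, they were -0.12 and -0.09.

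The 3 sulfotransferases had positive mean differences at each dose, and none was called. *Sult1a1* (NM_133670), which conjugates simple phenols, ranged from 6.11 to 7.11 in controls, 6.52 to 7.40 at 25, 6.77 to 7.12 at 50 and 6.71 to 7.34 at 75 mg/kg/day. Its log2 differences were 0.24, 0.17 and 0.35 (SE 0.17 each), and 3 arrays at 75 mg/kg/day lay above all controls (adjusted p = 0.467). The lowest control value, 6.11, was that of control 4, and without that array the differences were 0.07, 0.0072 and 0.18.

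*Sult1b1*, which acts on thyroid hormones and small phenols, was read by 2 probes with the same accession (NM_019878). The brighter gave 5.53, 5.15, 4.95, 5.60 and 4.80 in controls, and 5.90, 5.03, 6.26, 5.58 and 5.82 at 25 mg/kg/day. It gave 5.73, 5.07, 5.50, 5.93 and 5.92 at 50, and 5.73, 5.70, 6.28, 5.05 and 5.65 at 75 mg/kg/day. At the highest dose 4 of 5 arrays lay above every control and the fifth below 3 of them. The log2 differences were 0.51, 0.42 and 0.48 (SE 0.23 each; adjusted p = 0.639, 0.779 and 0.455). The dimmer probe, whose reference signal was not well above background on any array, gave 0.59, 0.46 and 0.42 (SE 0.28 each). The probes followed each other over the 20 arrays (Pearson r = 0.95, a description), also once slide means were removed (r = 0.94). At 50 mg/kg/day the processed signals gave -6e-04 for the brighter probe and 0.90 for the dimmer, so these signals set the probes apart.

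*Sult1d1*, which sulfonates catecholamines, had the largest point estimates of the sulfotransferases at 50 and 75 mg/kg/day and the largest SE of the brightest probes. Its probe (NM_016771) ranged from 5.82 to 6.77 in controls, 5.82 to 7.45 at 25, 6.11 to 7.51 at 50 and 5.92 to 7.63 at 75 mg/kg/day. On the log2 scale the exposed groups differed from control by 0.34, 0.55 and 0.59 (SE 0.31 each; adjusted p = 0.797, 0.781 and 0.495), and 4 of 5 arrays at 75 mg/kg/day lay above all controls. The first of these differences was 0.14 without animal 8 and 0.54 without animal 7. Its reference signal was not well above background on any of the 20 arrays, so its ratio is taken over a signal near background. With the liver channel alone the values were 0.17, 0.37 and 0.44, and with slide as a block 0.42, 0.55 and 0.67, where the adjusted p at 75 mg/kg/day was 0.176.

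*Papss2* encodes one of the synthases that make PAPS from ATP and sulfate, and it is the member with the smallest trend p. Its probe (NM_011864) gave 3.13, 3.08, 2.55, 2.84 and 2.64 in controls and 3.38, 3.10, 2.71, 2.96 and 2.83 at 25 mg/kg/day. It gave 3.60, 2.60, 4.03, 4.02 and 3.39 at 50 mg/kg/day, and 3.22, 3.33, 3.26, 3.12 and 3.53 at 75 mg/kg/day. At 50 and at 75 mg/kg/day 4 of 5 arrays lay above every control. The fifth at 50 mg/kg/day, that of animal 12, was close to the lowest control, and the SD of that group was 0.59 against 0.26 in controls and 0.15 at 75 mg/kg/day. The log2 differences were 0.15, 0.68 and 0.44 (SE 0.21 each), the middle one 1.61-fold (95% interval 1.19 to 2.17; adjusted p = 0.631). The step from 25 to 50 mg/kg/day was 0.54 ± 0.21 (adjusted p = 0.510), and that from 50 to 75 mg/kg/day was -0.24 ± 0.21. The trend was 0.19 per 25 mg/kg/day (adjusted p = 0.434), and *Papss2* and *Ugt2b36* were the 2 members with an unadjusted trend p under 0.05, beside 5.07% of present probes rising at that level. The 50 mg/kg/day value was 0.63 with the liver channel alone, 0.54 to 0.74 over the same 11 settings and 0.92 without animal 12. At 25 mg/kg/day the value with slide as a block was -0.03.

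**Figure D2:**
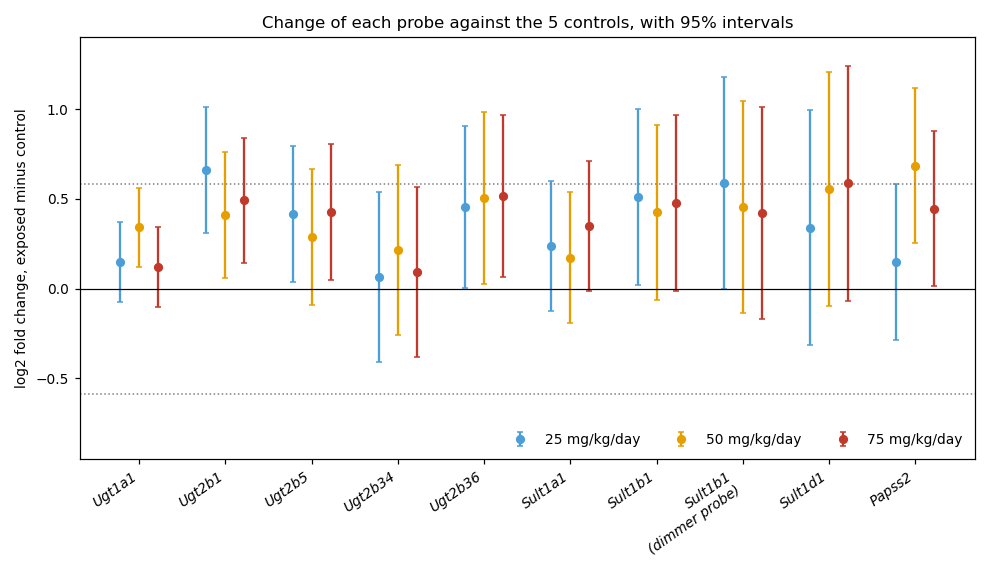
Log2 fold change against the 5 controls (vertical axis) for each member probe (horizontal axis) at 25, 50 and 75 mg/kg/day, with 95% intervals of the limma fit; dotted lines mark 1.5-fold. All points lie above 0, at most 0.68, and the largest are *Ugt2b1* at 25 and *Papss2* at 50 mg/kg/day.

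Read against the reference RNA alone, the control values of the other members were 6.72 ± 0.35 for *Ugt2b1*, 7.57 ± 0.37 for *Ugt2b5*, 5.54 ± 0.43 for *Ugt2b34*, 5.61 ± 0.63 for *Ugt2b36*, 6.77 ± 0.40 for *Sult1a1*, 5.21 ± 0.35 for the brighter *Sult1b1* probe and 2.85 ± 0.26 for *Papss2* (log2 ratio, SD, n = 5 each). These ratios set each probe's signal over that of the cell line pool and do not say how abundant one transcript is beside another. The dimmer *Sult1b1* probe gave 3.08 ± 0.54, so the ratio also differed between 2 probes of the same gene. For *Ugt2b1* and the brighter *Sult1b1* probe the pool's signal was well above background on 18 and 19 of the 20 arrays. For *Sult1d1* it was so on none, and its control ratio, 6.30 ± 0.44, was taken over a signal near background and is no measure of the excess. *Papss2*, at 7.2-fold, was thus measured against a pool in which its signal was well above background on all 20 arrays.

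The share of variance between slides was larger than that between dose groups for most members. Slide accounted for 72.5% of the variance of *Ugt2b34*, 72.2% of *Sult1a1*, 63.3% of *Sult1d1* and 62.8% of *Ugt2b5* over the 20 arrays, against 4.86%, 18.9%, 18.6% and 28.2% between dose groups, with 5 degrees of freedom for slide and 3 for dose. *Ugt1a1* and *Papss2* were the exceptions, with 8.79% and 6.42% between slides and 43.1% and 41.1% between dose groups. *Ugt2b1* had the largest share between dose groups, 48.51%, close to its 52.25% between slides. With unlike degrees of freedom these 2 shares do not rank slide above dose for it. The directions of the slide differences differed among genes. *Sult1d1* averaged 7.26 on slide 2 and 5.87 on slide 5, whereas *Ugt2b5* averaged 7.79 on slide 2 and 8.33 on slide 5. Slides 4 and 5 held only animals at 25 and 75 mg/kg/day and slide 6 only controls and animals at 50 mg/kg/day. Since the controls and the 50 mg/kg/day group were spread alike over the same 4 slides, the block left the 50 mg/kg/day estimates as they were, apart from *Ugt2b36* with its missing array (0.43). Within the slides that held both, *Papss2* was higher than control at 50 mg/kg/day on 4 of 4 slides (0.47 to 1.38), *Ugt2b1* at 25 mg/kg/day on 3 of 3 (0.20 to 0.86) and *Sult1d1* at 75 mg/kg/day on 3 of 3 (0.33 to 1.19). *Ugt2b36* at 75 mg/kg/day was higher on 2 of 3, from -0.21 to 0.97. The *Papss2*, *Ugt2b1* and *Sult1d1* values named here were the largest estimates of their doses, so their signs are no separate support. *Ugt2b1* at 75 mg/kg/day was higher on 2 of 3 slides (-0.21 to 0.65), and *Sult1a1* at 50 mg/kg/day on 2 of 4 (-0.07 to 0.67). Apart from slide 6, each difference set 1 exposed array against 1 control array.

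**Figure D3:**
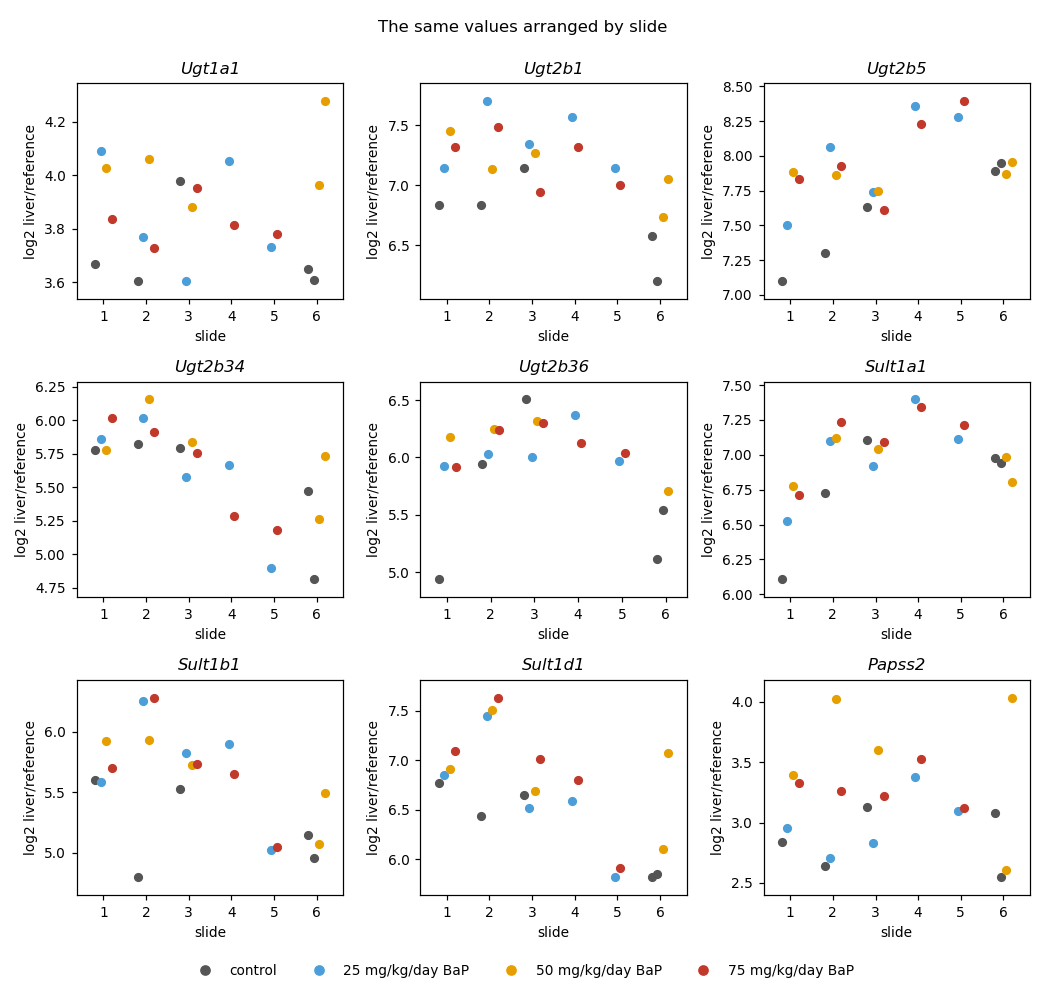
The log2 ratios of liver over reference (vertical axis) of the 9 genes arranged by slide (horizontal axis), 1 point per array, coloured by dose group. *Sult1d1* and *Ugt2b34* lie low and *Ugt2b5* high on slide 5, while *Ugt1a1* and *Papss2* show no such order.

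The members varied together from array to array in part, with 1 array per mouse. Of 36 gene pairs, 32 had a positive Pearson r over the arrays, and 10 passed an adjusted permutation p of 0.05 (100000 permutations, two-sided, Benjamini-Hochberg over the 36). All permutation p-values here belong to the raw values, with slide and dose differences left in. Arrays of the same slide are not independent, and no p was computed with slide means removed. The p-values therefore do not set variation between mice apart from slide. The highest was between *Sult1b1* and *Sult1d1*, neighbours on chromosome 5 (r = 0.85, Spearman rho = 0.75, permutation p = 2e-05 and 0.00022, adjusted p = 0.00036 and 0.00264), and it was 0.87 without the 2 arrays farthest from the *Sult1b1* median. *Ugt2b34* with *Sult1d1* (r = 0.83, rho = 0.79, permutation p = 1e-05 and 7e-05, adjusted p = 0.00036 and 0.00252) gave 0.78 without 2 arrays but 0.55 once slide means were removed, and the first of these p-values is the smallest that the permutations can give. *Sult1a1* with *Ugt2b5* (r = 0.78, rho = 0.65, permutation p = 7e-05 and 0.00256, adjusted p = 0.00063 and 0.0184) gave 0.62 without 2 arrays and 0.86 with slide means removed. *Ugt2b34* and *Ugt2b5*, both on chromosome 5, ran opposite in the raw values (r = -0.44, rho = -0.45, permutation p = 0.049 and 0.0487, adjusted p = 0.126 and 0.119; -0.47 without 2 arrays), and r was 0.24 with slide means removed. With slide means removed all 36 values were above 0, from 0.13 to 0.86. Each value is a ratio within an array, so pairs also share the array's reference signal. The median of all present probes with a mean log2 ratio above 3 itself ranged from 4.05 to 4.57 over the arrays. Its part in these correlations was not tested, and no share over other gene pairs is given beside these counts.

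The 5 genes outside the members whose log2 ratio ran most like that of *Ugt2b1*, the member of smallest p at 75 mg/kg/day, were *Cnr2* (r = 0.86), *Il1rap* (r = 0.85), *Scp2* (r = 0.84), *Slc22a28* (r = 0.83) and *Dock4* (r = 0.83) over 20 arrays and 12801 genes. With slide means removed the 5 were *Tm6sf1* (r = 0.91), *Tmx2* (r = 0.87), *Pgam1* (r = 0.86), *Ctnnb1* (r = 0.86) and *Hccs* (r = 0.85), none of which was among the first 5. This ranking is a description of the arrays.

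Transcripts enriched in liver over the reference also had positive differences in general. The median log2 difference of the 9 genes was 0.34, 0.41 and 0.44 at 25, 50 and 75 mg/kg/day, while that of all 27346 present probes was 9e-04, -0.0032 and 0.0025. Among the 1213 present probes with a mean log2 ratio above 3, which include all 10 member probes and were chosen on all 20 arrays, the medians were 0.22, 0.17 and 0.27, and 87.6%, 80.2% and 84.3% of them were above 0. The share of those probes that were higher at an unadjusted p under 0.05 was 17.4%, 12.8% and 30.2%. Chosen on the control arrays alone, 1155 probes passed, with 9 member probes and without *Papss2*, and their medians were 0.21, 0.16 and 0.26. The 5 hepatocyte markers with a present probe had medians of 0.38, 0.32 and 0.49, all 5 above 0 at each dose and 0 called, with *Fabp1* at 0.55, 0.51 and 0.61 and *Alb* at 0.33, 0.45 and 0.44. Their mean log2 ratio ranged from 4.66 to 6.09 over the controls, with control 4 lowest, and from 5.49 to 6.07, 5.45 to 5.93 and 5.55 to 5.94 in the exposed groups. When the median of the 1213 probes was subtracted from each array, a step added after the data were seen, the median of the members was 0.14, 0.27 and 0.22, with 6, 9 and 7 of the 9 above 0, and the lowest adjusted p was 0.196. With the 1155 probes in its place it was 0.14, 0.27 and 0.21. With the liver channel alone the median was 0.17, 0.22 and 0.27. The part of this common shift in each gene's value was not tested, nor was the part of the ratio scaling in the shift. In whole liver a larger share of hepatocytes and more of these RNAs per hepatocyte cannot be told apart. At 50 and 75 mg/kg/day neither can be told apart from array position.

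**Figure D4:**
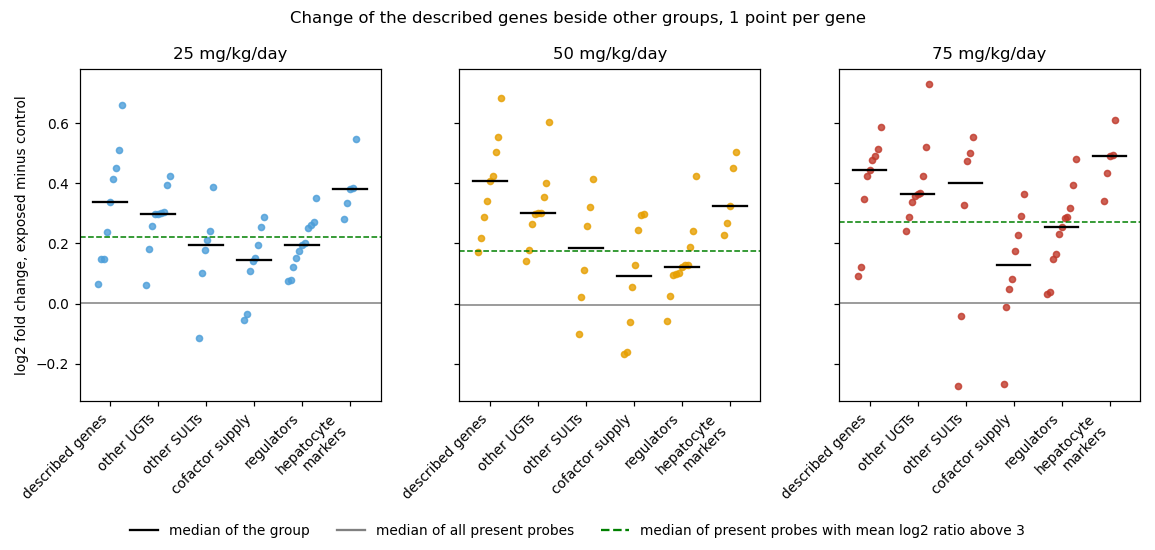
Log2 fold change against control (vertical axis) at each dose, 1 point per gene, for the 9 described genes and 5 other gene groups (horizontal axis). Black lines are group medians, the grey line is the median of all present probes and the green dashed line that of the 1213 probes with a mean log2 ratio above 3; the 9 genes lie above the grey line, as do the hepatocyte markers.

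The other UGT genes are given from a fixed list, also chosen with earlier results of these data known. Of 16 listed, 10 had a probe and 9 a present one, and all 9 had a point estimate above 0 at each dose, with medians of 0.30, 0.30 and 0.37 and 0 called. They included *Ugt1a6b*, a close relative of the unmeasured *Ugt1a6a*, whose brighter probe gave 0.30, 0.30 and 0.29 and whose other probe gave -0.09, 0.06 and -0.14, so its probes disagreed in sign at 25 and 75 mg/kg/day. The largest of the 9 at 50 and 75 mg/kg/day was *Ugt1a9*, which gave 0.06, 0.60 and 0.73 (SE 0.33 each). Its adjusted p at 75 mg/kg/day was 0.411, and the highest member value at that dose was 0.59. The UGT2B genes are close in sequence, and the sequences of their probes are not given in the sources used here. Of 15 other SULT genes, 9 had a probe and 6 a present one. Their medians were 0.20, 0.19 and 0.40, from -0.27 to 0.55 at the highest dose, and 0 were called.

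Of 9 genes that supply cofactors, 8 had a present probe and 0 were called, with medians of 0.15, 0.09 and 0.13. *Papss1*, the other PAPS synthase, gave -0.03, -0.17 and -0.27 beside the positive values of *Papss2*. *Ugdh* and *Ugp2*, of the path to UDP-glucuronic acid, gave 0.14, 0.25 and 0.23, and 0.11, 0.30 and 0.05 for the brighter *Ugp2* probe. The other *Ugp2* probe gave 0.14, -0.04 and 0.05, so its probes disagreed in sign at 50 mg/kg/day. *Slc26a1*, a sulfate transporter, gave 0.26, 0.13 and 0.29 for the brighter probe and 0.39, 0.20 and 0.39 for the other (adjusted p = 0.239 at 75 mg/kg/day). *Slc35d1* and *Slc35b3*, nucleotide sugar and PAPS transporters, gave 0.36 and 0.18 at the highest dose. There the brighter probes of *Bpnt1* and *Bpnt2*, phosphatases of the sulfonation by-product, gave -0.01 and 0.08. Their other probes gave 0.08 and -0.07, opposite in sign. The deconjugating enzymes *Gusb* and *Arsa* gave 0.04 and 0.10.

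Among 11 regulators of these genes, 0 were called at any dose and 11, 10 and 11 had a point estimate above 0, with medians of 0.19, 0.12 and 0.25. *Nfe2l2*, which encodes Nrf2, gave 0.25, 0.42 and 0.48 for the brighter probe and 0.37, 0.43 and 0.51 for the other (adjusted p = 0.348 and 0.274 at 75 mg/kg/day). *Ahr* itself gave 0.15, 0.24 and 0.15. Of 7 aryl hydrocarbon receptor targets, 6 had a present probe and 1 was called, at 75 mg/kg/day, beside 0.135% of all present probes. This was *Nqo1*, a quinone reductase, at 0.10, 0.34 and 0.68 (adjusted p = 0.0386). *Tiparp* gave 0.48, 0.39 and 0.54 (adjusted p = 0.131 at 75 mg/kg/day), *Cyp1a2* gave 0.25, 0.13 and 0.31 for the brighter probe and 0.32, 0.31 and 0.45 for the other (adjusted p = 0.145), and *Cyp1a1*, well above background on 11 of 20 arrays, gave 0.06, -0.03 and 0.72 (adjusted p = 0.566). The *Cyp1a1* value at 75 mg/kg/day rested on animal 16, at a log2 ratio of 3.64 against 0.07 to 0.49 in the other 4 arrays, and was 0.04 without it. *Ahrr* and *Cyp1b1* gave 0.09 and -0.12 at 75 mg/kg/day.

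Markers of other liver cells were read from the same arrays, where 0.135% of all present probes were called at 75 mg/kg/day. Of 6 Kupffer cell markers, *Marco* was called at 75 mg/kg/day (2.19, adjusted p = 0.00148), while the other 5 had values from 0.03 to 0.16. Of 6 sinusoidal endothelial markers, the brighter *Lyve1* probe was called (2.23, adjusted p = 0.0189). Its other probe was not called (0.56, adjusted p = 0.0771). *Kdr* gave 0.58, *Pecam1* 0.22, *Stab2* 0.28 and *Clec4g* 0.30, and *Oit3* gave 0.35 for the brighter probe and 0.15 for the other. At 75 mg/kg/day the 5 bile duct markers had a median of -0.17, from -0.29 to 0.13, with 2 above 0. The 5 stellate cell markers had a median of 0.34, with 3 above 0. *Dcn* gave 0.80 (adjusted p = 0.188), *Reln* 0.53, and *Lrat* 0.34 for the brighter probe and 0.35 for the other. *Des* gave -0.16, and *Col1a1* -0.19 for the brighter present probe and -0.05 for the other. Of either list 0 were called. The part of these markers in the members' values was not tested.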

How the data were processed

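Liver RNA of 20 mice was hybridised on 2-colour Agilent arrays against 1 reference RNA. The median spot and local background intensities used here were deposited by the authors as scanned with Agilent Feature Extraction (10.1.1.1 per the file headers), and are not normalized. A further set of intensities in the deposited files came with background subtraction and dye normalization from that software (processed intensities), and the deposited table of log2 ratios had been LOWESS normalized by the authors. Median intensities were corrected by normexp (offset 50) and loess normalized within each array, outlier spots were left out, and log2 ratios were averaged per probe (41174 probes). 0 spots were saturated. Presence followed the study's methods (above the trimmed mean plus 3 trimmed SDs, with a 5% trim, of 153 negative controls, for at least 4 arrays of 5 in some group). The 4 groups were compared with limma 3.58.1 in R 4.3.3, with Benjamini-Hochberg adjustment over all 27346 present probes and calls at an adjusted p under 0.05 and over 1.5-fold; the trend used dose as a number. The study used MAANOVA and left out 1 unnamed sample, whereas all 20 entered here. Simulated data with 200 changed probes were used to check the fit. Intervals cover the spread between arrays, whose number limits the precision.

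Probes were named through their accession in RefSeq's table (23374 probes with a symbol), and of several probes of a gene the brightest present one stands for it, with the others given where named. All 10 genes are reported with every probe, with every array's value for those with an unadjusted p under 0.05 in a contrast or the trend. A gene of another list is named when it was called, had an unadjusted p under 0.01 in a dose contrast, or belonged to a list of at most 9 genes, the latter partly by ranges. *Ugt1a6b*, *Ugt1a9* and *Ahr* are named outside this rule. The members and lists were chosen with earlier results of these data known. Alternatives were no background correction, the processed intensities, the LOWESS table, the liver channel alone (quantile normalized), slide as a block, other filters on dim probes, each dose with controls alone, adjustment over the 3 contrasts together, log2 dose, leaving out each array and, chosen after seeing the data, removal of the shift of liver-enriched probes (chosen on all arrays or on controls). For the lowest dose the series' design text has 24 mg/kg and the sample labels have 25 mg/kg, which was used.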

Additional observations from a re-analysis of the deposited data

Results flagged for a closer look

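Of 40 sets of arrays examined for a single distant value (10 member probes in 4 groups), 2 held one, and chance gives about 5%. *Ugt1a1* read 3.98 in control 1, and the next control stood at 3.67, so that this gap made up 0.832 of the range of the group. *Ugt2b36* read 6.37 in animal 6 at 25 mg/kg/day, with the next array at 6.03 (0.778 of the range). Without control 1 the log2 difference of *Ugt1a1* at 50 mg/kg/day was 0.41, and its adjusted p was 0.28.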

How the results depend on the processing

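No member was called at any dose and no trend was called under any alternative run. The median of the members stayed above 0, from 0.14 to 0.37 at 25, 0.20 to 0.41 at 50 and 0.21 to 0.54 at 75 mg/kg/day. Leaving out each array gave 0.22 to 0.42, 0.32 to 0.51 and 0.35 to 0.52; the lowest at 25 mg/kg/day came without animal 8. Signs turned in 24 of 630 comparisons of a probe with its value in another setting. Not all of these comparisons could turn, so the count understates how often a sign turned where it could. The other filters on dim probes, each dose with controls alone and adjustment over the 3 contrasts together repeat the log2 differences of the main fit. Slide as a block also repeats them at 50 mg/kg/day, apart from *Ugt2b36*. The processed signals gave -0.0139 and -0.0356 for *Ugt1a1* at 25 and 50 mg/kg/day and -6e-04 for *Sult1b1* at 50. The liver channel alone gave -0.0197 and -0.11 for *Ugt1a1* and -0.16 and -0.20 for *Ugt2b34* at 25 and 75, and -0.0163 for *Ugt2b36* at 25. Slide as a block gave -0.0274 for *Papss2* at 25. Subtracting the liver-enriched shift gave -0.0493 and -0.11 for *Ugt1a1* and -0.13 and -0.14 for *Ugt2b34* at 25 and 75, and -0.0511 for *Papss2* at 25; with the probes chosen on controls alone these were -0.0548, -0.112, -0.139, -0.14 and -0.0567. *Ugt2b34* without 1 array gave -0.12 to 0.24 at 25 and -0.09 to 0.20 at 75, with negative values of -0.116 and -0.0885 without control 3, -0.0389 without animal 8, -3e-04 without animal 9 and -0.0041 without animal 17. Their cause was not tested. Of 300 values of a probe without 1 array, 37 moved over 1.5 times or changed sign, 19 of them for *Ugt2b34*. Over all present probes, the 37 calls at 75 mg/kg/day became 62 with the processed signals and 58 with slide as a block, 33 with no filter on dim probes and 27 with probes well above background on all arrays, and the 0 calls at 50 became 4 and 3. No paired analysis was possible because the groups share no replicate number; slide was the block in its place.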
